A study of Mus musculus with 6 samples.

Results

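Amino acid transporter genes were followed on 6 expression arrays from 32D, a mouse myeloid cell line that depends on interleukin-3. The genes were taken by symbol from 7 solute carrier families, SLC1, SLC3, SLC6, SLC7, SLC36, SLC38 and SLC43. Of 18194 genes with a probe set of a single symbol, 63 matched, through 125 probe sets. Each gene was read from its probe set with the highest mean over the 6 arrays. The pattern also took in 3 symbols that end in "os", which name genes lying opposite a transporter gene, so 60 of the 63 are transporter genes. In 3 samples the 32D cells expressed both strands of one microRNA precursor, miR-9 and miR-9*, and 3 samples are of 32D cells with the empty vector alone. Every culture was fed 10 ng/ml murine interleukin-3 and 10% fetal calf serum, so no group lacks the cytokine. The promoter that drives the microRNA is not given in the sources used here, and the level of miR-9 in the cells was not analysed here. The replicates are described as independent, without a statement of how the cultures were kept apart.

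Cells take up amino acids through carriers that differ in what they carry and in what drives them. Sodium-coupled carriers such as those of SLC38 concentrate small neutral amino acids, glutamine among them. Exchangers of SLC7 pair with a heavy chain of SLC3 and trade one amino acid for another, which brings in leucine and other large neutral amino acids. Leucine, arginine and glutamine inside the cell feed the mTORC1 kinase, the switch that couples growth to nutrients, and in blood progenitors cytokines such as interleukin-3 raise the surface level of nutrient carriers.

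The tested agent and the promoters of 3 genes discussed below are shown first, because the microRNA pair is what separates the groups and the promoters hold, or lack, elements known from amino acid control. The mature microRNA sequences are RefSeq's, GRCm38.p6, from Mir9-1 on the plus strand, with the seed (bases 2 to 8) in capitals. miR-9* is named miR-9-3p there. The seeds differ, so the strands belong to different seed groups.
mmu-miR-9-5p, chr3:88215613-88215635: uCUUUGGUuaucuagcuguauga
mmu-miR-9-3p, chr3:88215652-88215673: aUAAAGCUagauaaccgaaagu

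The promoter windows, also RefSeq's on GRCm38.p6, run from 250 bases before to 50 bases after the start of the gene. Capitals mark matches on either strand to TGATGNAA, the form of the element bound by ATF4 with C/EBP partners during amino acid shortage, or to CACGTG, the E-box bound by MYC and related factors. The motifs do not overlap in these windows. Slc7a8 is shown as the transporter gene that passed a test, Slc7a11 as a classical ATF4 target, and Slc43a1 for its E-box.
Slc7a8, minus strand, chr14:54781837-54782136: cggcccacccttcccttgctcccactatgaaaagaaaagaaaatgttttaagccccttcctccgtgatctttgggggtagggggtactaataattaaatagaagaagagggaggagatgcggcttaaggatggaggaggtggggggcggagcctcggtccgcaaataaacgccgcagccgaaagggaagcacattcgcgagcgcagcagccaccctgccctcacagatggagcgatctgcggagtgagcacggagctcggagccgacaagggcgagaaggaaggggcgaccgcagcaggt
Slc7a11, minus strand, chr3:50443564-50443863: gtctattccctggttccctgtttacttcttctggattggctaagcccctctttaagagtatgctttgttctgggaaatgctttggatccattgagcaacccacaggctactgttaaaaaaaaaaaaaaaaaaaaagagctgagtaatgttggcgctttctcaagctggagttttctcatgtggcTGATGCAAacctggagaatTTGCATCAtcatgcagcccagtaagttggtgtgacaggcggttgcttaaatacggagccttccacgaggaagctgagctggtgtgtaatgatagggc
Slc43a1, plus strand, chr2:84840073-84840372: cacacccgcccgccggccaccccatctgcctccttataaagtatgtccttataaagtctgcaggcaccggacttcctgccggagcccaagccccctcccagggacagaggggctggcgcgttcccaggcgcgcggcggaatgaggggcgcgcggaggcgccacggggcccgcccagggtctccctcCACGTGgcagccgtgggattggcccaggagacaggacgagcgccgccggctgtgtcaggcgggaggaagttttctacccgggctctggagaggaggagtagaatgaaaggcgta
RefSeq promoters were matched by symbol for 46 of the 63 genes. TGATGNAA was present for 4 of these, 8.7%, namely Slc1a4, Slc6a21, Slc7a7 and Slc7a11, against 4.51% of all 27025 genes with a promoter. CACGTG was present for 9, or 19.6%, against 8.09% of all genes. These were Slc1a6, Slc1a7, Slc36a1, Slc38a5, Slc38a7, Slc43a1, Slc6a16, Slc6a3 and Slc7a14. Of the 46 genes, 22 were above the signal filter described below. Among those 22, TGATGNAA was present for 3, or 13.6%, Slc1a4, Slc7a7 and Slc7a11. CACGTG was also present for 3, or 13.6%, Slc36a1, Slc38a7 and Slc43a1. The Slc7a8 window holds neither. A match is a string of letters and no evidence of binding.

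Values are MAS5 signals, the summary of a probe set's probe pairs on a linear scale, with each array scaled to a trimmed mean of 100. Signals of different probe sets depend on their probes, so they are compared between samples and not between genes. Probe sets with a mean below the median of all probe sets, a signal of 13.0, were left out of the tests. Of the 63 genes, 33 were above this filter among 10201 genes tested. Spearman correlations between arrays ran from 0.919 to 0.942, and identical values were found in 0 pairs of arrays. With 3 arrays in each arm, the precision of every value is limited by that number. Of 10 myeloid progenitor markers 9 were above the filter in these cells. Elane, the neutrophil elastase gene, was below it and at no more than 15.1 on any array.

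Fold changes are given as log2 differences in the mean of log2(signal + 16), miR-9/9* minus empty vector, a scale that understates the change of dim genes. In the limma fit of the arms, 0 of the 33 genes passed an adjusted p of 0.05, and 0.0588% of all tested genes did (0.0196% higher and 0.0392% lower). At an unadjusted p under 0.05 there were 2 of 33, both higher, against 4.62% of all genes (2.26% higher and 2.35% lower). These were Slc38a1 and Slc38a3, of which Slc38a3 was above the filter only through its miR-9/9* values. Arrays that share a replicate number departed from the mean of their arm in the same direction. A second fit therefore took the number as a block, which tests the differences within numbers. With the block, 1 of 33 passed, Slc7a8, or 3.03%, against 2.95% of all genes. That call was a lower one, against 1.44% of all genes called lower, and 0 of 33 were called higher, against 1.51%. The share of transporter genes that passed is therefore close to that of all genes. With the block 9 of 33 had an unadjusted p under 0.05, or 27.3%, against 17% of all tested genes. Of these 5 were higher, or 15.2%, against 8.7%, and 4 lower, or 12.1%, against 8.27%.

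**Figure D1:**
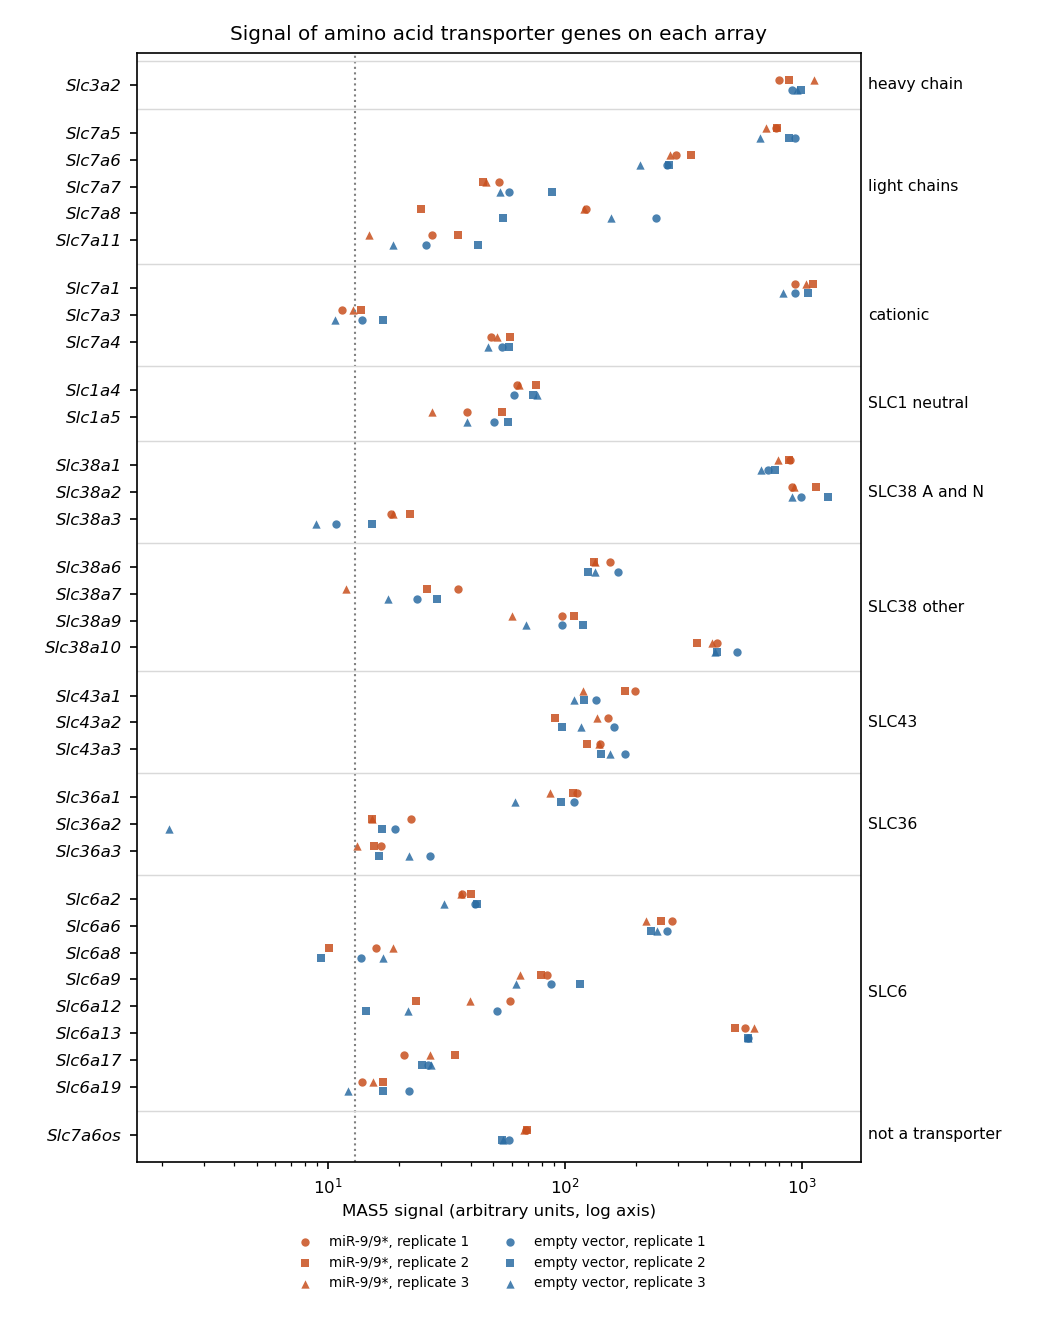
MAS5 signal (log axis, arbitrary units) of the 33 genes above the filter on each array, miR-9/9* in orange above empty vector in blue, with a marker for each replicate number and families named on the right. The dotted line is the filter at a signal of 13.0. For most genes the 2 colours overlap, and in Slc7a8 both arrays of replicate number 2 (squares) lie far to the left.

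The heteromeric exchangers hold the one gene that passed. Their heavy chain Slc3a2 (CD98), which carries the light chains to the surface, gave signals of 807, 888 and 1129 in miR-9/9* cells and 916, 992 and 961 in empty vector cells, in the order of replicate numbers 1, 2 and 3, as throughout. The miR-9/9* arrays held both the lowest and the highest value, and the log2 fold change was -0.04 (SE 0.0891, block adjusted p = 0.89). The other heavy chain, Slc3a1, was below the filter and at no more than 7.32 on any array. Of 10 light chain genes 5 were above the filter.

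Slc7a8, a light chain that exchanges neutral amino acids of many sizes, gave 123, 24.7 and 121 in miR-9/9* cells and 244, 54.9 and 157 in empty vector cells. Within every replicate number the miR-9/9* array was the lower one, while the arms as wholes overlapped because both arrays of number 2 were low. The log2 differences within numbers were -0.90, -0.80 and -0.34, with an SD of 0.303. Slc7a8 fell by 0.68 on the log2 scale with the block (SE 0.124, adjusted p = 0.022, lower in 3 of 3 pairs), whereas without it the SE was 0.562 and the adjusted p 0.999. Both SEs are limma's moderated values, which draw on the spread of other genes as well as that of Slc7a8. Without a block, omitting 1 array moved the log2 fold change to -0.09 (miR-9/9* replicate 2 omitted), -0.27 (empty vector replicate 1) or -1.21 (empty vector replicate 2). With the block, omitting replicate number 1 in both arms gave -0.57 and an adjusted p of 0.0948, which misses the threshold. The fold change stayed at -0.68 when dim probe sets were kept in the test or the variance trend was dropped, with adjusted p of 0.112 and 0.106, and over all 10 fits with the block the adjusted p ran from 0.00389 to 0.112. In bulk RNA, fewer cells that express Slc7a8 and less of its message per cell cannot be told apart.

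Markers of several blood lineages differed between the same arms in the fit with the block. There 14 of the 34 markers above the filter passed, or 41.2%, against 2.95% of all genes. The marker lists were chosen with earlier results of these data known, so this share is a description and no independent test. Without the block limma called 0 of the 34 (9 with an unadjusted p under 0.05), and the adjusted p of those 14 ran from 0.076 to 0.999. The calls that follow are those with the block. Among 6 erythroid markers above the filter, Gata1, Klf1 and Rhag, 3 in all, rose with the block. The summed signal of the 9 with a probe set was 1981 to 2178 in miR-9/9* cells and 1269.6 to 1340.1 in empty vector cells, while Alas2 and Slc4a1 of that list were below the filter. Of 7 late neutrophil markers 4 fell, with sums over 10 genes of 252 to 2662 in miR-9/9* cells and 1026 to 3962 in empty vector cells. Among these 4, Stfa2l1 was above the filter only through its empty vector values. It gave 9.85, 0.869 and 11.3 in miR-9/9* cells and 49.2, 11.7 and 24.9 in empty vector cells. Of 6 megakaryocyte markers 4 rose, with sums over 7 genes of 1509 to 2866 in miR-9/9* cells and 1222 to 2263 in empty vector cells. Of 4 eosinophil markers 2 rose, with sums over 5 genes of 277 to 3772 in miR-9/9* cells and 257 to 1374 in empty vector cells. Prg3 of that list, which did not pass, was above the filter only through its miR-9/9* values. Of the 9 myeloid progenitor markers 1 fell with the block, Csf2rb, the shared beta chain of the interleukin-3 receptor, at 2050.4, 974 and 2182 in miR-9/9* cells and 2736, 1244 and 2675 in empty vector cells (log2 fold change -0.35, block adjusted p = 0.0364). Like Slc7a8, Csf2rb was low on both arrays of number 2. The part of these lineage differences in the values of Slc7a8 was not tested.

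**Figure D2:**
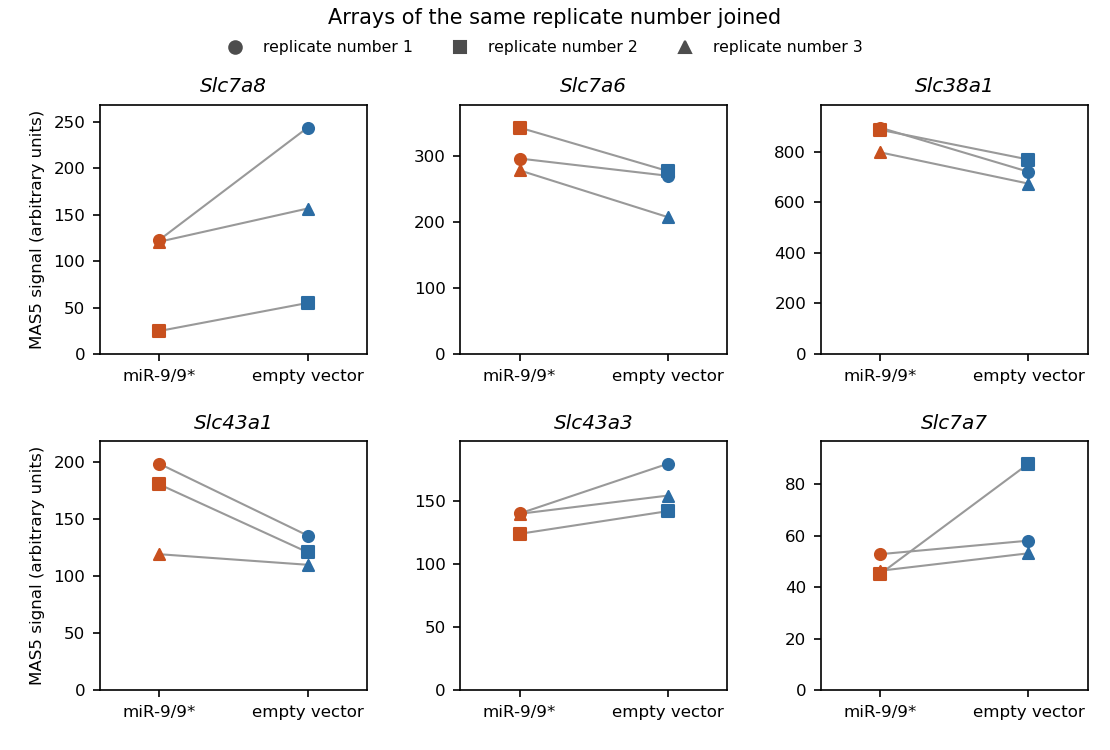
MAS5 signal (arbitrary units, axes from 0) of 6 transporter genes, with the arrays of each replicate number joined by a line, miR-9/9* on the left and empty vector on the right. Slc7a8 is lower in miR-9/9* cells along all 3 lines although its values run from 24.7 to 244, while Slc38a1 has all 3 miR-9/9* values above all empty vector values.

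Slc7a6 and Slc7a7 are alternative light chains of one transport system, which exchanges cationic for neutral amino acids, and Slc7a7 is known from macrophages. Slc7a6 gave 296, 343 and 278 in miR-9/9* cells and 269.7, 277 and 207 in empty vector cells, so its arms did not overlap, by a narrow margin. Its log2 fold change of 0.27 did not pass (SE 0.0781, block adjusted p = 0.113), and a second probe set stood at 0.17. Slc7a7 gave 52.9, 45.2 and 46.4 in miR-9/9* cells and 58.1, 88.1 and 53.2 in empty vector cells. These arms did not overlap either, in the other direction, and the empty vector value of number 2 stood apart. The log2 fold change of -0.34 did not pass (SE 0.149, block adjusted p = 0.291), and a second probe set stood at -0.36.

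Slc7a5, the leucine carrier usually found with Slc3a2 in growing cells, gave 781, 789 and 706 in miR-9/9* cells and 939, 889 and 668 in empty vector cells. The arms overlapped, with both lowest values at number 3, and the log2 fold change was -0.12 (block adjusted p = 0.509). Slc7a11, the cystine-glutamate exchanger that supplies glutathione synthesis, averaged 26.0 ± 10.4 in miR-9/9* cells and 29.2 ± 12.4 in empty vector cells. Both arms were highest at number 2 and lowest at number 3. Its log2 fold change was -0.10 (block adjusted p = 0.764), and its second probe set stood at 0.09. The window shown above for Slc7a11 holds 2 matches to TGATGNAA.

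Among the cationic carriers, Slc7a1 takes up arginine and lysine and is in mice the receptor of ecotropic retroviruses. It gave 936, 1114 and 1041 in miR-9/9* cells and 940.5, 1065 and 832 in empty vector cells. The arrays of numbers 1 and 2 lay close together and those of number 3 did not, with differences of -0.01, 0.06 and 0.32. The log2 fold change was 0.13 (SE 0.0787, block adjusted p = 0.479), and a second probe set stood at 0.31, higher in 3 of 3 pairs. Slc7a4, a relative without a settled substrate, averaged 53.3 ± 5.08 in miR-9/9* cells and 53.3 ± 5.61 in empty vector cells (SD, n = 3 each). Slc7a3, just above the filter and only through its empty vector values, averaged 12.7 ± 1.15 in miR-9/9* cells and 13.9 ± 3.24 in empty vector cells. Slc7a2 and Slc7a14 were below the filter.

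The SLC1 family divides into exchangers of small neutral amino acids and glutamate carriers. Slc1a4, which exchanges alanine, serine and cysteine, gave 63.1, 75.6 and 64.01 in miR-9/9* cells and 60.9, 73.3 and 76.0 in empty vector cells, with overlapping arms (log2 fold change -0.04, block adjusted p = 0.901). A further 2 probe sets of Slc1a4 above the filter disagreed with it. They stood at 0.41 and 0.44, each higher in miR-9/9* cells in 3 of 3 pairs. Averaging the 3 probe sets gave a log2 fold change of 0.27, which did not pass either (block adjusted p = 0.215). Slc1a5, the glutamine exchanger of many dividing cells, averaged 40.1 ± 13.5 in miR-9/9* cells and 48.8 ± 9.58 in empty vector cells (log2 fold change -0.23, block adjusted p = 0.409). Its difference was negative in 3 of 3 pairs, and a second probe set stood at -0.17. All 5 glutamate carriers of the family, Slc1a1, Slc1a2, Slc1a3, Slc1a6 and Slc1a7, were below the filter and at no more than 14.6 on any array.

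In SLC38, Slc38a1 and Slc38a2 are sodium-coupled carriers of glutamine, alanine and other small neutral amino acids, and Slc38a2 is known to be induced when amino acids run short. Slc38a1 gave 896, 887 and 798 in miR-9/9* cells and 721, 769.5 and 674 in empty vector cells. The arms did not overlap, and the differences of 0.31, 0.20 and 0.24 lay close together. The log2 fold change of 0.25 just missed the threshold (SE 0.0645, block adjusted p = 0.0824, unadjusted 0.00383), and a second probe set stood at 0.21, also higher in 3 of 3 pairs. Slc38a2 gave 915, 1146 and 932 in miR-9/9* cells and 994, 1295 and 911 in empty vector cells. Both arms were highest at number 2, and the log2 fold change was -0.09 (block adjusted p = 0.599). Its further probe sets above the filter stood at 0.09 and -0.07.

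Slc38a3, a carrier of glutamine, histidine and asparagine best known from liver and kidney, was dim in both arms. It gave 18.4, 22.2 and 18.9 in miR-9/9* cells and 10.8, 15.3 and 8.90 in empty vector cells. The arms did not overlap, but 2 of the 3 empty vector values were below the filter. Slc38a3 was tested only through its miR-9/9* values, with a mean of 19.8 against 11.7 in empty vector cells. The log2 fold change of 0.38 did not pass (SE 0.149, block adjusted p = 0.24) and was 0.74 with a pseudocount of 1 and 0.15 with one of 64. Slc38a4 and Slc38a5 were below the filter.

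The other SLC38 genes serve mainly membranes inside the cell. Slc38a9, the arginine sensor of the lysosome that signals to mTORC1, gave 97.0, 109 and 59.6 in miR-9/9* cells and 96.9, 119 and 68.6 in empty vector cells. The replicate number carried 96.5% of the variation of these 6 values, and the log2 fold change was -0.09 (block adjusted p = 0.719). The 7 probe sets of Slc38a9 above the filter had both signs, from -0.37 to 0.11. Slc38a10 gave 438, 361 and 417 in miR-9/9* cells and 534, 439 and 431 in empty vector cells. It was lower in 3 of 3 pairs and did not pass (log2 fold change -0.20, SE 0.0735, block adjusted p = 0.209). Its 6 probe sets above the filter did not share a direction. Those with the highest mean signals, 437, 257 and 211, stood at -0.20, -0.25 and -0.12. Each of these was lower in 3 of 3 pairs. The dimmer ones stood at 0.05, 0.15 and -0.29. Slc38a6 gave 156, 134 and 135 in miR-9/9* cells and 168, 126 and 135 in empty vector cells. Those values overlapped throughout, and the log2 fold change was -0.01 (adjusted p with the block 0.981). Slc38a7, a lysosomal glutamine carrier, averaged 24.5 ± 11.8 in miR-9/9* cells and 23.5 ± 5.38 in empty vector cells.

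All 3 SLC43 genes were above the filter, and their differences ran in different directions. Slc43a1, a sodium-independent carrier of leucine and other large neutral amino acids, gave 198, 180.1 and 119 in miR-9/9* cells and 135, 121 and 109.7 in empty vector cells. It was higher in 3 of 3 pairs, by 0.50, 0.52 and 0.10, with overlapping arms since number 3 differed little. The log2 fold change of 0.38 did not pass (SE 0.105, block adjusted p = 0.105), but passed when number 3 was left out (0.51, adjusted p = 0.0231). Slc43a3, which carries purine bases and not amino acids, gave 140.4, 124 and 140.2 in miR-9/9* cells and 180.0, 142 and 155 in empty vector cells. Its arms did not overlap, and the log2 fold change of -0.21 did not pass (SE 0.0868, block adjusted p = 0.263). Slc43a2, a close relative of Slc43a1 with similar substrates, gave 152, 91.0 and 136 in miR-9/9* cells and 161, 96.9 and 117 in empty vector cells. Number 2 was the lowest in both arms, and the log2 fold change was 0.01 (block adjusted p = 0.966). A second probe set of Slc43a2 stood at 0.23, higher in 3 of 3 pairs.

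**Figure D3:**
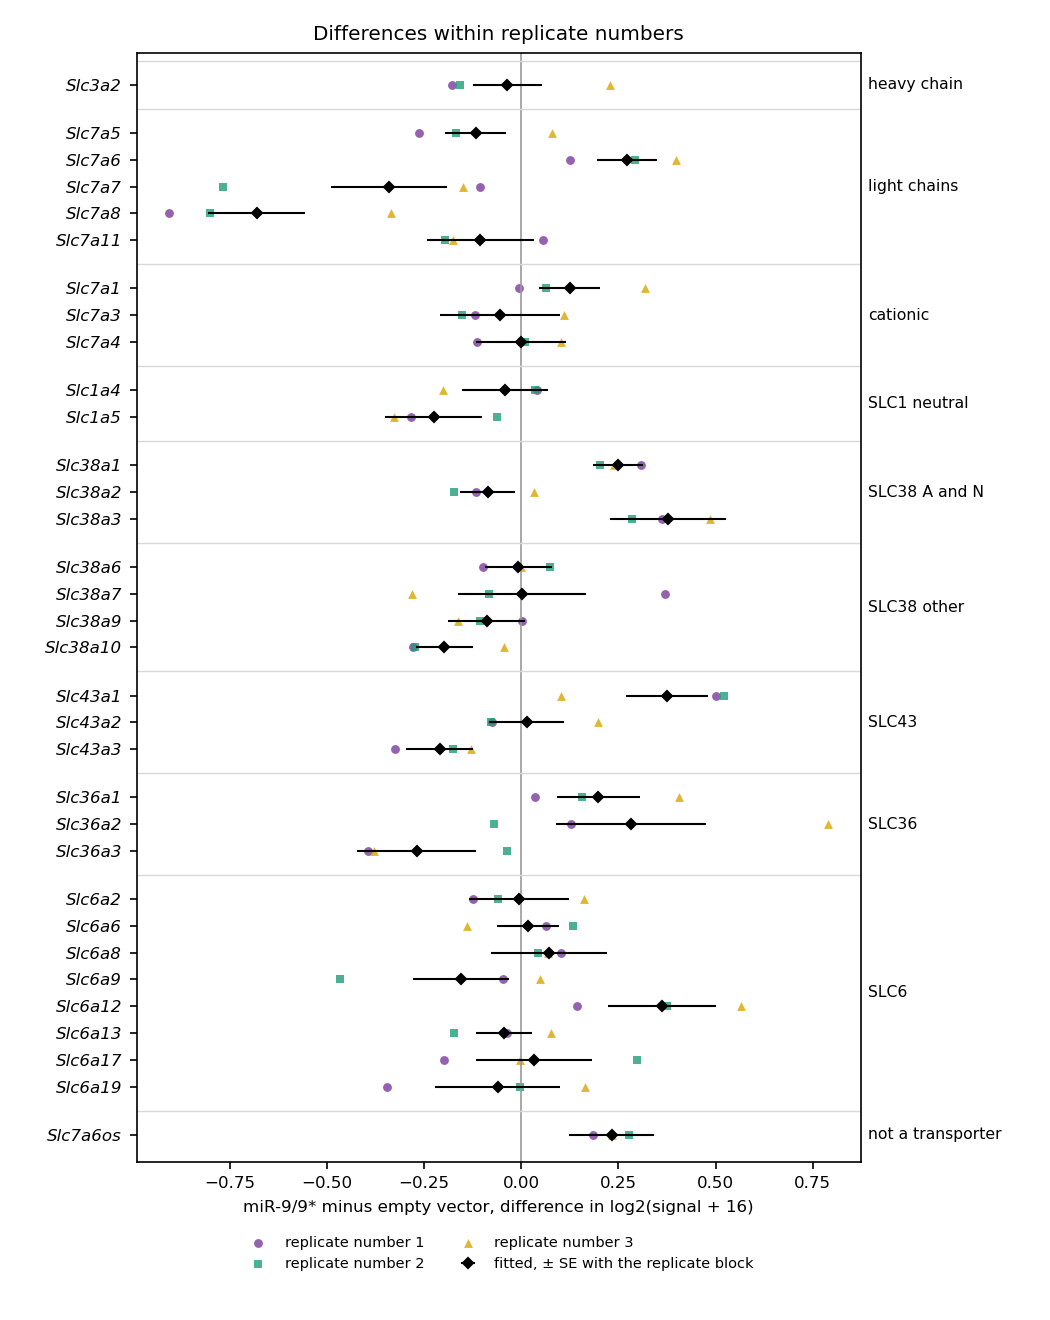
Difference in log2(signal + 16), miR-9/9* minus empty vector, of the 33 genes within each replicate number (coloured markers), with the fitted log2 fold change and its SE from the fit with the block (black). Slc7a8 lies farthest left, with differences of -0.90, -0.80 and -0.34, and for Slc38a1 the 3 numbers lie close together on the right.

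In SLC36, whose members move small amino acids together with protons, Slc36a1 exports amino acids from lysosomes. It gave 113, 109 and 87.0 in miR-9/9* cells and 109, 96.0 and 61.8 in empty vector cells. The arrays of number 3 were lowest in each arm and furthest apart, and the log2 fold change of 0.20 did not pass (block adjusted p = 0.399). Slc36a2 averaged 17.7 ± 4.08 in miR-9/9* cells and 12.7 ± 9.25 in empty vector cells, with 1 empty vector array at 2.14. It was above the filter only through its miR-9/9* values. Slc36a3 averaged 15.2 ± 1.78 in miR-9/9* cells and 21.9 ± 5.33 in empty vector cells. Neither passed, and Slc36a4 was below the filter.

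SLC6 carriers use sodium and chloride and include the carriers of neurotransmitters and osmolytes. Of 20 genes 8 were above the filter, and none of these 8 passed in either limma fit (1 with an unadjusted p under 0.05 with the block, Slc6a12, and 0 without it). Slc6a13, a carrier of GABA and taurine, gave 578, 524 and 629.6 in miR-9/9* cells and 594, 593 and 596 in empty vector cells. The empty vector values were almost equal and lay inside the range of the miR-9/9* values (log2 fold change -0.04, block adjusted p = 0.816). Slc6a12, a betaine and GABA carrier, gave 58.9, 23.5 and 40.0 in miR-9/9* cells and 51.9, 14.5 and 21.8 in empty vector cells. Both arms were highest at number 1 and lowest at number 2, and Slc6a12 was higher in 3 of 3 pairs without passing (log2 fold change 0.36, SE 0.139, block adjusted p = 0.228).

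Slc6a6, the taurine carrier, gave 284, 255 and 221 in miR-9/9* cells and 271, 231 and 245 in empty vector cells. Slc6a9, a glycine carrier that supplies haem synthesis in red cell precursors, gave 84.2, 79.8 and 64.7 in miR-9/9* cells and 87.4, 116 and 62.0 in empty vector cells. The arms of both genes overlapped. For Slc6a6 the log2 fold change was 0.02 (adjusted p with the block 0.942) and for Slc6a9 it was -0.15 (adjusted p with the block 0.593). A second probe set above the filter stood at -0.02 for Slc6a6 and at 0.01 for Slc6a9. The noradrenaline carrier Slc6a2 averaged 37.8 ± 2.03 in miR-9/9* cells and 38.3 ± 6.52 in empty vector cells, and the vesicular carrier Slc6a17 averaged 27.4 ± 6.68 in miR-9/9* cells and 26.1 ± 1.15 in empty vector cells. The creatine carrier Slc6a8 averaged 14.9 ± 4.42 in miR-9/9* cells and 13.4 ± 3.91 in empty vector cells, and the kidney and gut carrier Slc6a19 averaged 15.5 ± 1.57 in miR-9/9* cells and 17.1 ± 4.92 in empty vector cells. The other 12 were below the filter, with 18.6, for Slc6a18, as their highest signal on any array.

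Slc7a6os, which lies opposite Slc7a6 and encodes no amino acid carrier, gave 68.3, 69.2 and 67.4 in miR-9/9* cells and 58.1, 54.3 and 54.9 in empty vector cells. The spread within the arms was small and they did not overlap, yet the log2 fold change of 0.23 did not pass (SE 0.108, block adjusted p = 0.321). A second probe set stood at -0.13. The other such genes, Slc36a1os and Slc6a19os, were below the filter.

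Over the 33 genes the median log2 fold change was -0.01, with 14 above and 19 below 0, beside a median of 0.01 over all tested genes. The median was -0.05, -0.06 and 0.08 within replicate numbers 1, 2 and 3, so its sign was not the same in all pairs. The median size of the fold change, without its sign, was 0.12 against 0.10 for all tested genes. All 3 pairs were higher for 8 of the 33, or 24.2%, against 21% of all genes, and lower for 6, or 18.2%, against 18%. The arms did not overlap for 6 genes, or 18.2%, against 9.82% of all genes: 4 were higher in miR-9/9* cells (12.1%, against 5.1%), Slc38a1, Slc38a3, Slc7a6 and Slc7a6os, and 2 were lower (6.06%, against 4.73%), Slc43a3 and Slc7a7. These are counts over genes that passed a filter on the mean of both arms, and describe the family without setting it apart. Slc38a3 and Slc36a2 met that filter only through their miR-9/9* values, and Slc7a3 only through its empty vector values. Of 16 genes with several probe sets above the filter, 8 had fold changes of one sign in all of them and 8 had both signs.

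Replicate number went with more of the variation of these genes than the arm did. There are more replicate numbers than arms, so the number takes the larger share on average even where neither has an effect. Of the sum of squares of the 6 log2 values, the number carried a median of 68.2% over the 33 genes and the arm 9.43%, beside 63.7% and 10.4% over all tested genes. The number carried over 50% for 21 of the 33. The arm carried the larger share for 6, namely Slc7a6os, Slc38a3, Slc38a1, Slc36a3, Slc43a3 and Slc7a7. Among these Slc38a3 was above the filter only through its miR-9/9* values. Neither the count of 21 nor that of 6 was made over all tested genes. Averaged over the arms, Slc7a8 differed by 1.82 on the log2 scale between its highest and lowest number, and Slc6a12 by 1.04, beside a median of 0.28 over the 33 genes and 0.29 over all tested genes. What differed between the cultures of different number is not given in the sources used here.

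**Figure D4:**
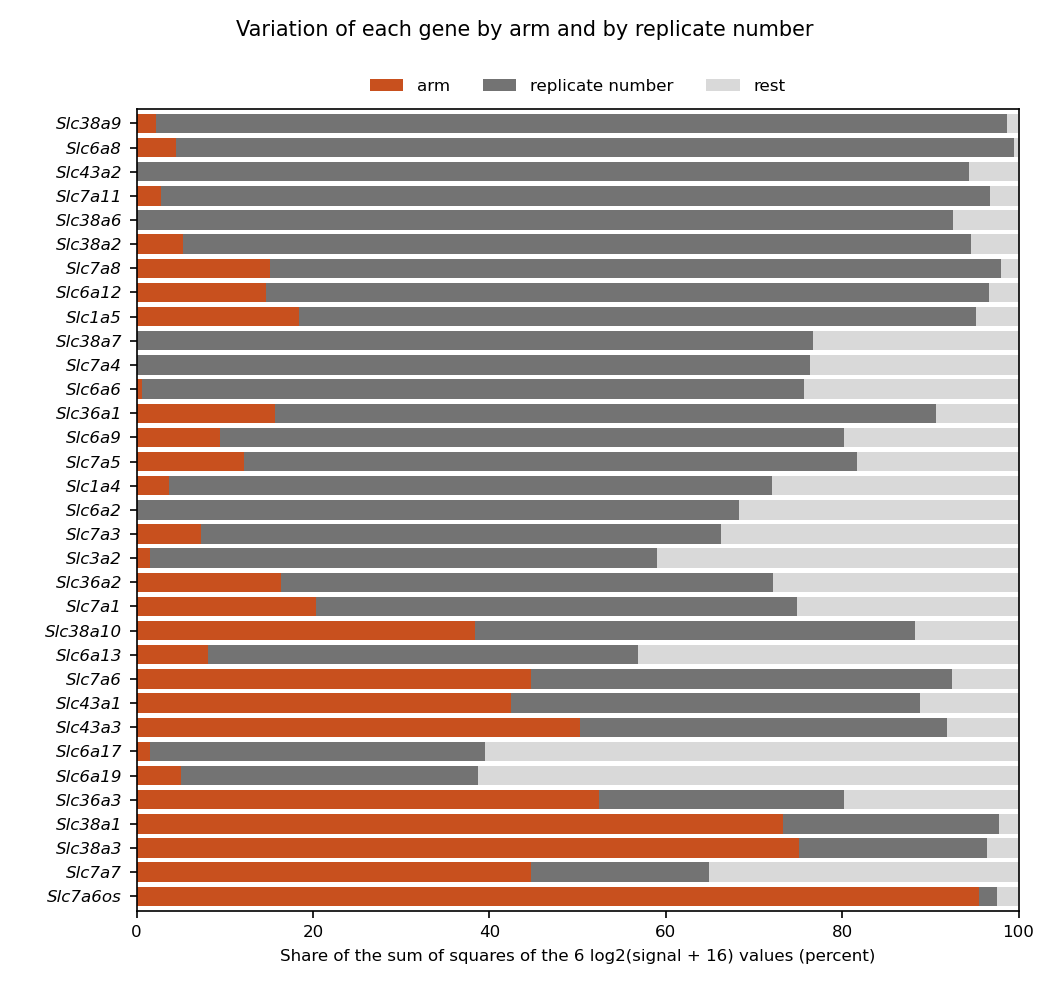
Share (percent) of the sum of squares of the 6 log2(signal + 16) values that goes with the arm (orange), the replicate number (dark grey) and neither (light grey), for the 33 genes ordered by the replicate number's share. Dark grey fills over 50% of the bar for 21 genes, and the arm's share is largest for Slc7a6os, at 95.5%.

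Genes that use, make or sense amino acids were set beside the carriers. Of 9 genes of branched-chain amino acid breakdown above the filter, 1 fell with the block and 0 rose. Of all tested genes 1.44% fell and 1.51% rose. At an unadjusted p under 0.05 with the block there were 2 of the 9, or 22.2%, against 17% of all tested genes. The gene that fell was Bcat2, the mitochondrial enzyme that takes the amino group from leucine, isoleucine and valine. Bcat2 gave 37.4, 50.3 and 54.8 in miR-9/9* cells and 87.7, 112 and 105 in empty vector cells. The arms did not overlap, and Bcat2 fell by 0.89 on the log2 scale with the block (SE 0.108, adjusted p = 0.00479, lower in 3 of 3 pairs), while without the block the adjusted p was 0.175. The call held in all 10 fits with the block, with adjusted p from 0.00296 to 0.0435. Without a block limma called 0 of the 9 (1 with an unadjusted p under 0.05).

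No gene passed in the remaining lists in either limma fit. Their counts at an unadjusted p under 0.05 with the block stand beside 17% of all tested genes. The amino acid response genes around ATF4 had 15 members above the filter and a median log2 fold change of -0.03, with 2 (13.3%) at an unadjusted p under 0.05 with the block. Atf4 itself gave 1577, 1801 and 2064 in miR-9/9* cells and 1662, 1912 and 1955 in empty vector cells, with overlapping arms. Eif4ebp1, a translation brake under ATF4 control, averaged 1094 ± 74.9 in miR-9/9* cells and 1052 ± 71.9 in empty vector cells. Of 13 serine, glycine and proline synthesis genes 3 (23.1%) had an unadjusted p under 0.05 with the block, and the median was -0.02. Phgdh, the first enzyme of serine synthesis, gave 3432, 2892 and 2713 in miR-9/9* cells and 2914, 2831 and 3444 in empty vector cells, and Aldh18a1, of proline synthesis, averaged 1054 ± 37.9 in miR-9/9* cells and 1063 ± 34.0 in empty vector cells.

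Of 10 glutamine and glutathione genes 1 (10.0%) had an unadjusted p under 0.05 with the block, and the median was 0.04. Gclm, a subunit of the enzyme that starts glutathione synthesis, averaged 2015 ± 312 in miR-9/9* cells and 1881 ± 409 in empty vector cells, and the lipid peroxide reductase Gpx4 averaged 1717 ± 120.4 in miR-9/9* cells and 1903 ± 205 in empty vector cells. All 19 cytosolic tRNA synthetases with a probe set were above the filter, with fold changes between -0.20 and 0.22 on the log2 scale, a median of 0.01 and 3 (15.8%) at an unadjusted p under 0.05 with the block. Gars, which charges glycine tRNA, had a log2 fold change of -0.08, and Nars, for asparagine, of 0.07.

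The 30 genes of amino acid sensing by mTORC1 had a median of 0.03, with 5 (16.7%) at an unadjusted p under 0.05 with the block. Lamtor1 and Lamtor5, subunits of the lysosomal anchor of that kinase, had log2 fold changes of -0.09 and -0.12. Of 13 carriers of amino acids and related compounds outside the 7 families 1 (7.69%) had an unadjusted p under 0.05 with the block, and the median was 0.06. It was Slc25a39, a mitochondrial carrier of glutathione, at 2036, 1769.6 and 2081 in miR-9/9* cells and 2148, 1937 and 2821 in empty vector cells (log2 fold change -0.21, block adjusted p = 0.264). Slc25a12, the aspartate-glutamate carrier of mitochondria, was higher in 3 of 3 pairs at 0.13 (block adjusted p = 0.376). Of these 13 genes, 11 had a fold change above 0 and 2 below. All 3 pairs were higher for 6 of the 13, against 21% of all genes, and lower for 1, against 18%. Without a block the counts at an unadjusted p under 0.05 were 1 for serine, glycine and proline synthesis, 1 for glutamine and glutathione, and 0 for the other 4 lists.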

How the data were processed

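The authors deposited intensities summarised with MAS5, a tool that the submitters' processing notes name without a version. Per the deposited table all are above 0 on a linear scale with a mean of 100 on each array once the lowest and highest 2% are left out. RNA was extracted with Trizol and 6 ug per array labelled with biotin, per the labels. Detection calls were not used here. Names came from a platform annotation: of 45101 probe sets, 34958 have 1 symbol, 932 several and 9160, control probe sets aside, are unnamed here. Entrez IDs matched 34754 of the first to the RefSeq gene table of GRCm38.p6, with 0 symbols changed.

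Groups and replicate numbers came from the titles. Signals were taken as log2(signal + 16), probe sets below 13.0 left out, and the arms compared by limma's moderated two-sided test with a variance trend (limma 3.58.1, R 4.3.3). P-values were adjusted by Benjamini-Hochberg over 10201 genes, with 0.05 as the threshold. The fits were tested on simulated data. The replicate block was an alternative. Same-numbered arrays' deviations correlated at 0.492, 0.617 and 0.683, above the limit of 0.1, so the pairing is read from the data. The SE and adjusted p of single genes are from the fit with the block unless stated otherwise. Without the block 0 of the 33 genes passed. The fits leave 4 residual degrees of freedom without the block and 2 with it. Values on each array are given for genes called in either fit, for the 20 with the highest mean and for those with separate arms, and for a few others chosen after their values were seen. From each pathway list up to 4 called genes are named, or the 2 with the highest mean. The genes and lists were chosen with earlier results of these data known.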

Additional observations from a re-analysis of the deposited data

How the results depend on the processing

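Without a block 6 of all genes were called. The fit that dropped the variance trend called 3 and the fit that dropped the filter 0 (893 with an unadjusted p under 0.05 in limma), while array weights gave 26. Leaving out each array in turn gave 7 when miR-9/9* replicate 3 was the one omitted, 0 for empty vector replicate 1 (397 at an unadjusted p under 0.05), 1 for miR-9/9* replicate 1 and 2 for each of the others. With the replicate block 301 genes were called, and with the block 279 at a pseudocount of 1, 295 at 64, 67 without a filter, 275 after quantile normalization, 38 without a variance trend and 235 with probe sets averaged. Leaving out a replicate number in both arms gave 168 (without number 1), 339 (without 2) and 364 (without 3) with the block. Among transporter genes the count of lower calls was 0 without a block under each alternative, and 1 with the block, also at a pseudocount of 1 (1) or 64 (1), after quantile normalization (1) and with probe sets averaged (1). With the block it was 0 without the filter and 0 without the variance trend. It ran from 0 to 1 when a number was left out. The count of higher calls was 0 in every fit but that with the block and without number 3, where it was 1 (Slc43a1). Where the filter or the trend was dropped, more genes were tested or the spread of each gene was estimated without regard to its level. The median log2 fold change of the transporter genes ran no further from its value than the 0.08 by which the pair medians spread. Of 34 named genes, 17 that passed in neither fit changed sign under at least 1 of 25 alternatives, none with a fold change above 0.20 in size, and 10 of them are transporter genes. Without detection calls, a dim signal cannot be told from background here.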
